A study of Rattus norvegicus with 12 samples.

Results

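The 37 genes described here encode the contractile apparatus of smooth muscle. They were taken by gene symbol from a count table of 34034 genes, all 37 symbols were found, and all 37 passed the filter on low counts. By role they fall into 16 filament genes, 11 adhesion and dense body genes, 4 channel and calcium genes and 6 regulators. Uterine tissue of 8-week-old female rats was profiled by QuantSeq, which sequences the 3′ end of polyadenylated RNA, in 4 groups of 3 libraries each. For EEP, the lining of a uterine horn was abraded with a bent needle, and 2 days later a bioprinted endometrial patch carrying cells was placed in it. For CP, horns abraded in the same way received a control patch, printed from Endo-UdECM without cells. AS tissue had the scraping injury and no patch, and normal tissue is labelled as normal and had no treatment named. The rats with injury were anesthetized with tribromoethanol, and the horn opposite an EEP horn was left as internal control or given CP, so horns of 1 animal may stand in different groups. The strain, the cells of the patch, the day of harvest and the number of animals are not given in the sources used here. The samples are titled Endometrium, whereas the design text speaks of uterine tissues, and how much myometrium each sample held is not given.

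Smooth muscle shortens when myosin heads pull on actin filaments that are fixed to dense bodies in the cytoplasm and to adhesion plaques at the membrane. Calcium entering through L-type channels leads to the activation of myosin light chain kinase, and myosin phosphatase reverses the phosphorylation. Many genes of this apparatus are switched on by serum response factor, which binds a DNA element called the CArG box, together with its coactivator myocardin. In the uterus these genes are known from the myometrium, the muscle wall that surrounds the endometrium, and from the walls of vessels.

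Promoters of 5 members are shown because they hold the element through which serum response factor, itself a member, acts. A CArG box was taken as CC and GG around 6 bases that are each A or T, and since its reverse complement is of the same form, a match on one strand is a match on both. RefSeq promoters on GRCr8 were found for 31 of the 37 members. In the 250 bases before the start, 4 of these 31 (12.9%) held at least 1 exact box, against 445 of 27457 promoters of all genes (1.62%). With 1 mismatch allowed, 11 of 31 members (35.5%) held a box, against 20.1% of all genes. The members Lmod1, Myh11, Myl9, Myocd, Pdlim3 and Tagln were not matched. The sequences run over the 140 bases before the start, 5′ to 3′ on the strand of the gene, with exact boxes in capitals in Srf, Cnn2, Acta1 and Dmd. In Acta2, which had no exact box in this window, the capitals mark the boxes with 1 mismatch. A match of letters is a description of the sequence and was not tested for binding.
Srf (chr9:21923936-21924075, plus strand): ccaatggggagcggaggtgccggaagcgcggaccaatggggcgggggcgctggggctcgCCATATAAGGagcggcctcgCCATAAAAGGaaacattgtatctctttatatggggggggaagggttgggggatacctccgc
Cnn2 (chr7:10370313-10370452, minus strand): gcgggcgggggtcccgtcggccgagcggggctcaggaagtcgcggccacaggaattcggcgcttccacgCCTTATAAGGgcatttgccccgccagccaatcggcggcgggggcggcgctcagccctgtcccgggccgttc
Acta1 (chr19:68784195-68784334, minus strand): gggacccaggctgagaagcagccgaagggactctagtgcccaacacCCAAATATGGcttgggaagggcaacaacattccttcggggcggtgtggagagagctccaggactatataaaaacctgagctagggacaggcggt
Dmd (chrX:51205946-51206085, plus strand): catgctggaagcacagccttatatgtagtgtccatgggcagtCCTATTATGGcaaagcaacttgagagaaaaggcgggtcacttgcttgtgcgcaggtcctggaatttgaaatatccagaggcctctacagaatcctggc
Acta2 (chr1:241172504-241172643, minus strand): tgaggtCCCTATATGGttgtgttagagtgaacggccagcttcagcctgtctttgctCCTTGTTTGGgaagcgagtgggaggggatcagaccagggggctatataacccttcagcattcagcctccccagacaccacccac

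Libraries held 4866790 to 8938227 counts, of which 37 mitochondrial genes took 18.9% to 82.5%. That left 1202525 to 5832552 counts for nuclear genes, and 14728 to 120591 of these fell on the 37 members. By group the mitochondrial share was 64.8% to 82.5% in CP, 68.7% to 75.2% in AS and 44.1% to 56.5% in normal tissue. Normal tissue thus did not overlap with AS or CP in this share. EEP 1 had the lowest mitochondrial share, 18.9%, against 53.6% and 76.3% in EEP 2 and EEP 3, and AS 1 stood apart from AS 2 and AS 3 in its markers of blood and epithelium. Levels throughout are CPM scaled by TMM, which sets a count against the size of its library multiplied by a factor fitted for that library. This factor ran from 0.493 in CP 1 to 2.36 in EEP 1. The summed level of 6 erythrocyte genes was 2810.5 CPM in AS 1, 200.5 CPM in AS 2 and 407 CPM in AS 3, and that of 8 leukocyte genes was 2498, 522 and 252 CPM. For this reason values without EEP 1, without AS 1 or without both are given for many results that they move, though not for all. The tissue held smooth muscle RNA in all 12 libraries, with Myh11, the smooth muscle myosin heavy chain, between 368 and 1138 CPM. Markers of simple uterine epithelium and of stroma were present too, with summed levels of 193 to 1409 and 3365 to 9275 CPM in EEP tissue.

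The contractile genes as a set had their lowest mean share of nuclear counts in EEP tissue and their highest in AS tissue. They took 2.07%, 2.04% and 1.22% of the nuclear counts in the 3 EEP libraries, 2.30%, 1.89% and 2.71% in the CP libraries, 4.26%, 3.39% and 3.74% in the AS libraries, and 2.94%, 3.17% and 2.62% in the normal libraries. The means were 1.78% ± 0.479 in EEP, 2.30% ± 0.412 in CP, 3.80% ± 0.436 in AS and 2.91% ± 0.276 in normal tissue (SD, n = 3 each). All 3 EEP libraries lay below all AS and normal libraries, while EEP and CP overlapped. Of all counts, mitochondrial ones included, they took 0.971% ± 0.693 in EEP, 0.664% ± 0.277 in CP, 1.11% ± 0.247 in AS and 1.44% ± 0.152 in normal tissue, so that on this basis CP had the lowest mean and normal tissue the highest. The summed level of the members was 7129, 6919 and 4257 CPM in EEP, 8195, 6521 and 9832 CPM in CP, 19906, 12806 and 13900.2 CPM in AS and 10259.5, 11712 and 9245 CPM in normal tissue. In tissue RNA, fewer muscle cells and less RNA per muscle cell cannot be told apart.

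**Figure D1:**
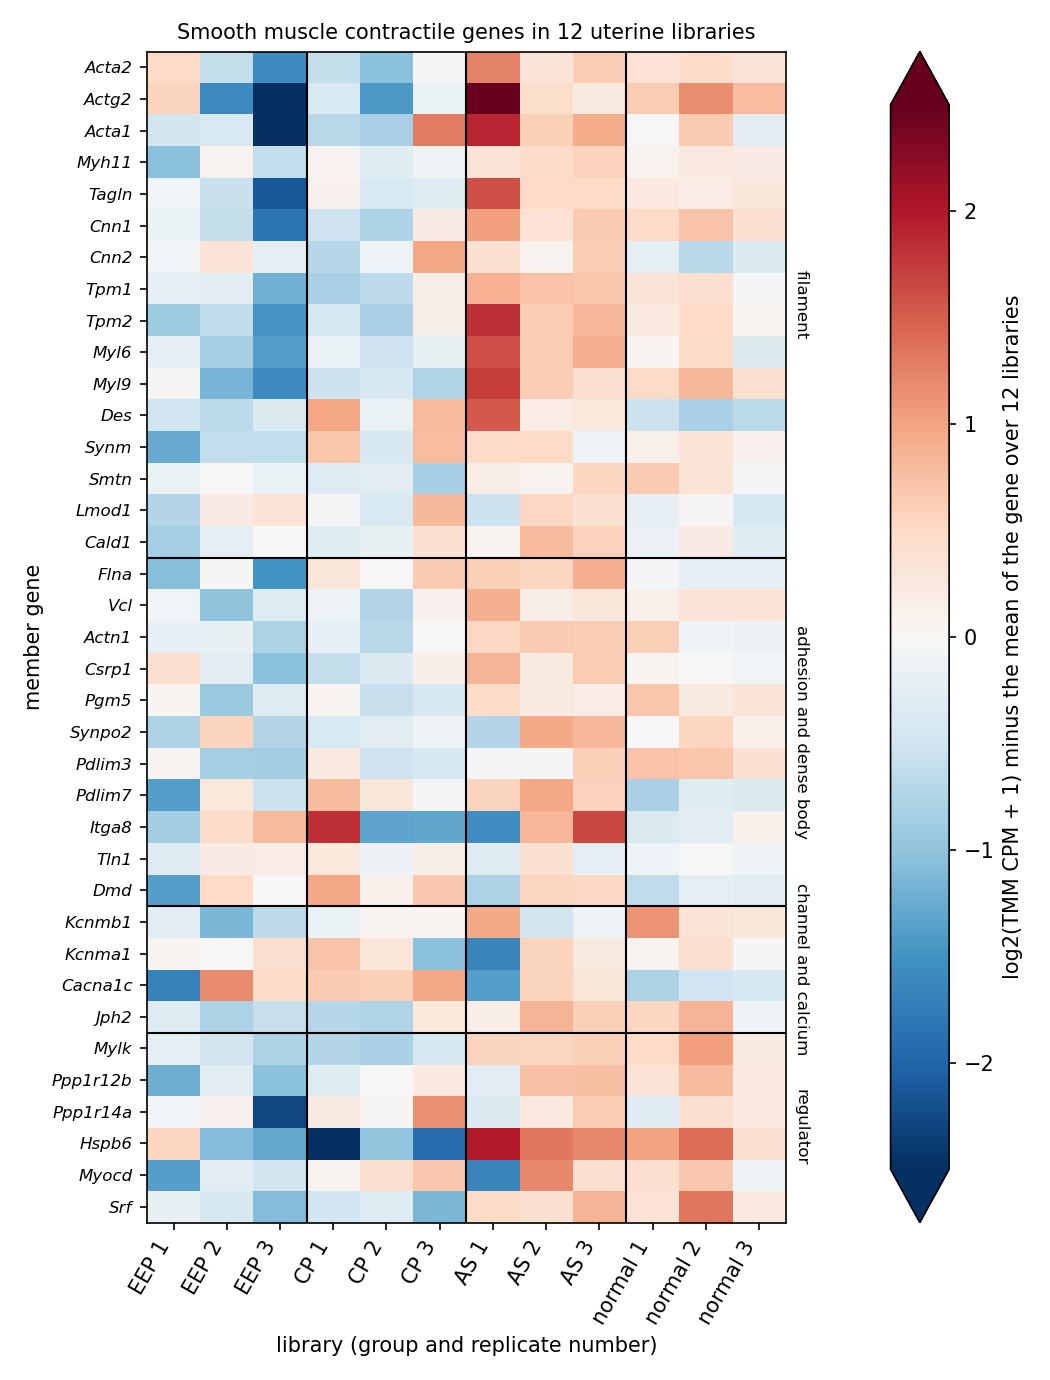
Level of each of the 37 members (rows, in 4 role groups divided by black lines) in the 12 libraries (columns), as log2(TMM-scaled CPM + 1) minus the mean of that gene over all libraries, blue for lower and red for higher, with colours saturating at the ends of the bar. Most filament genes are blue in EEP 3 and red in AS 1, and the mean over the 37 members is -0.43, -0.32 and -0.84 in the EEP libraries, against 0.44, 0.51 and 0.56 in the AS libraries.

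No member was called in any of the 6 comparisons at a Benjamini-Hochberg adjusted p under 0.05 with edgeR's quasi-likelihood test over 13909 genes. Between EEP and AS, where 0.0144% of all genes were called, 34 members had a fitted fold change below 0 and 3 above it, as did 49.1% and 50.9% of all genes. At an unadjusted p under 0.05, 23 members were lower in EEP and none was higher, against 5.17% of all genes lower and 4.97% higher, and DESeq2 called 10 members, all lower, and 3.84% of the 3650 genes to which it gave an adjusted p. In 21 members every EEP library lay below every AS library, and in none every one above, against 7.05% and 6.18% of all genes. The median log2 fold change of the members was -1.04, against 0.02 over all genes tested. The count of 23 ranged from 17 to 26 over the alternatives and the median from -1.10 to -0.91. Over all genes, 719 were lower at that p, with a range over the alternatives from 345 to 1378. With 1 library left out at a time, the fold changes of 19 of the 37 members moved by over 1.5 times or turned in sign. With EEP 1 and AS 1 both left out, 26 members were lower at an unadjusted p under 0.05 and the median was -1.10.

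Between EEP and normal tissue, where 0.00719% of all genes were called, 28 members were fitted lower and 9 higher, against 50.3% and 49.7% of all genes. At an unadjusted p under 0.05 there were 12 lower members and none higher, against 2.76% and 4.8% of all genes, and DESeq2 called 1 member, Mylk, and 0.839% of the 9297 genes with an adjusted p. In 19 members every EEP library lay below every normal library, which 8.44% of all genes did, and Cnn2 was the single member with every EEP library above, against 6.14%. For Cnn2 the nearest libraries were almost equal, EEP 3 at 56.65 CPM and normal 1 at 56.63 CPM. The median log2 fold change was -0.70, against -0.01 over all genes. The count of 12 was 6 without EEP 3, whose summed level was the lowest, 17 without EEP 1 and 19 without EEP 1 and AS 1 together. The count over all genes moved too. Those lower at that p were 384 of 13909 with all libraries, 202 of 14641 without EEP 3 and 1478 of 14175 without EEP 1 and AS 1 together.

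**Figure D2:**
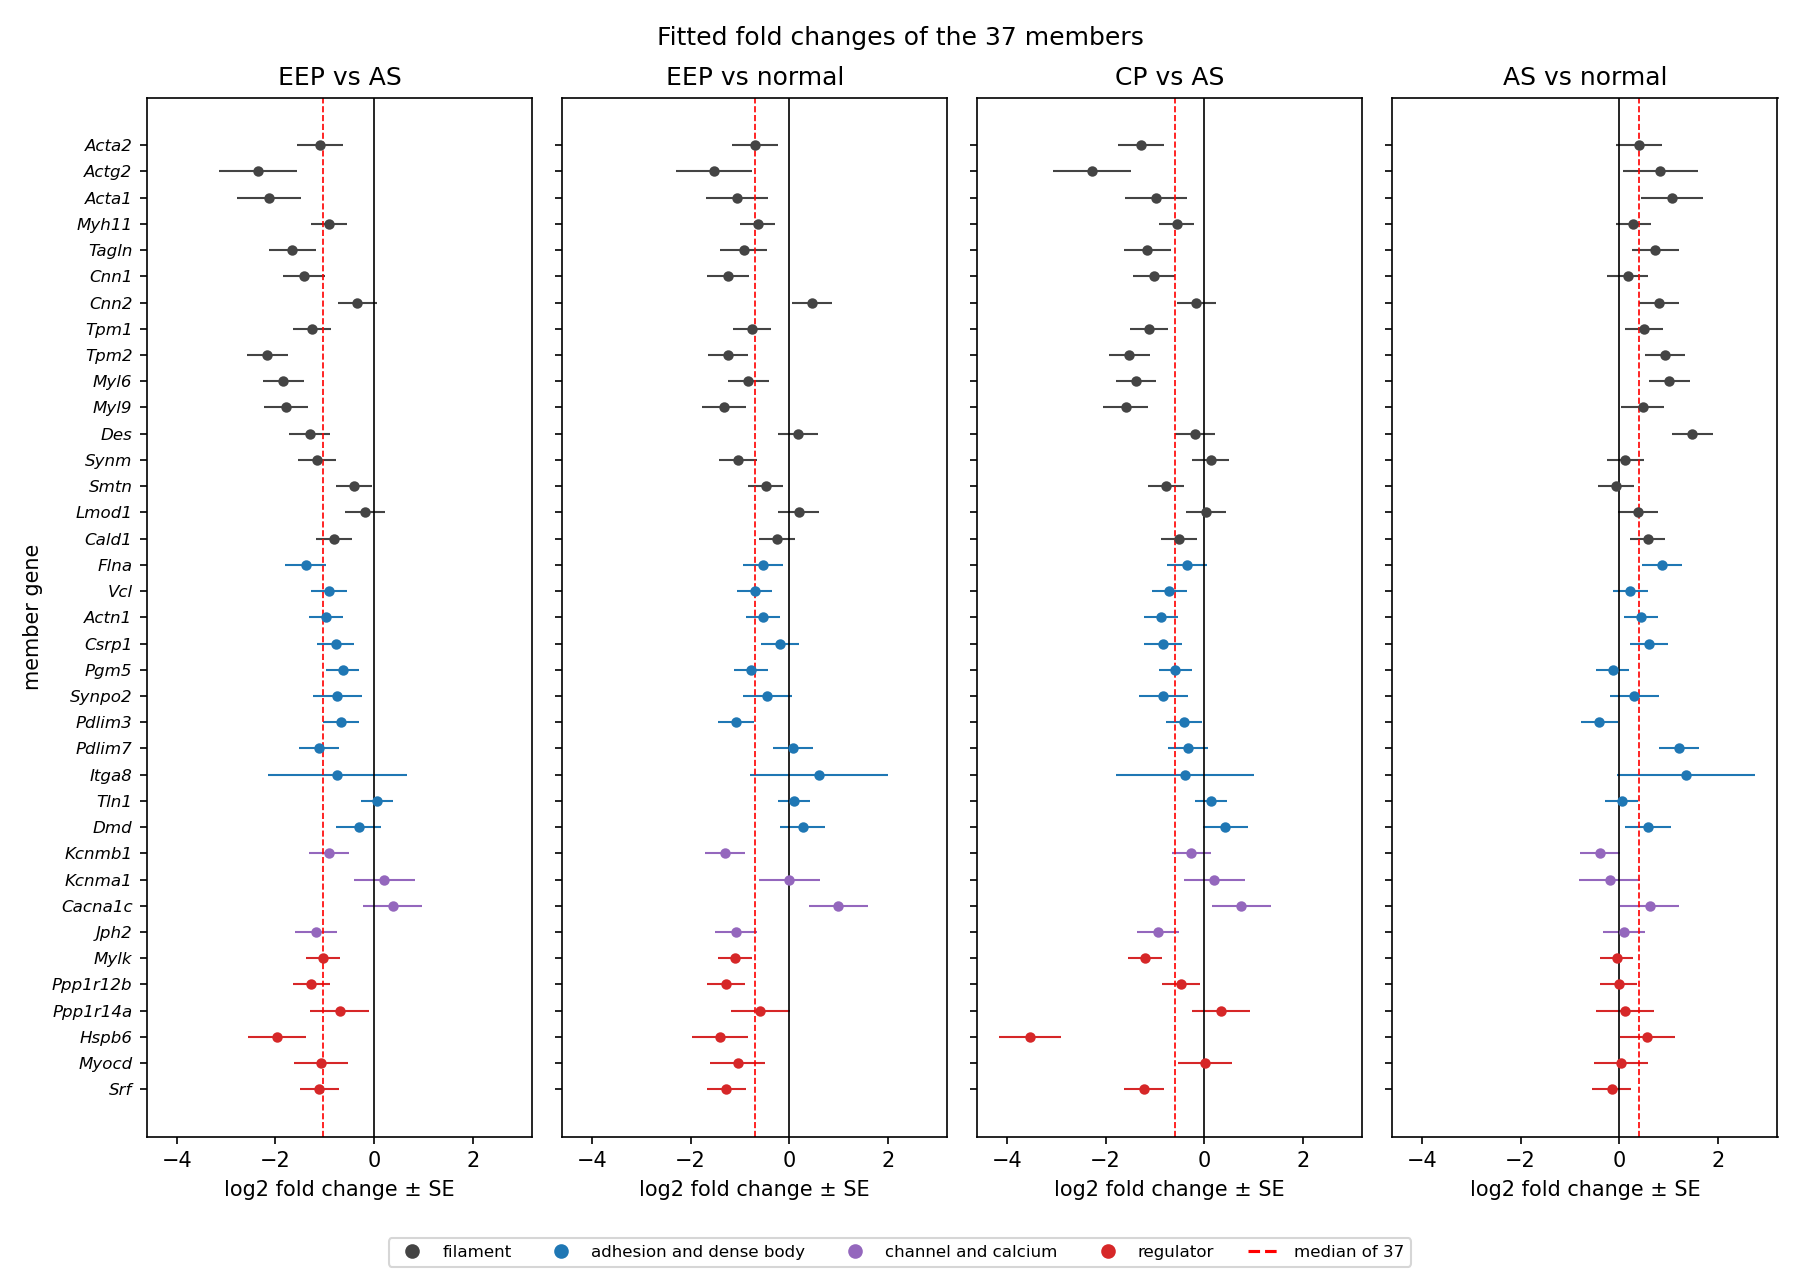
Fitted log2 fold change of each member (points, coloured by role; whiskers are the standard error of the fit) for EEP over AS, EEP over normal, CP over AS and AS over normal, with the median of the 37 as a dashed red line and 0 as a black line. Points lie left of 0 for 34 members in EEP over AS and right of 0 for 29 members in AS over normal. EEP over AS and AS over normal each share a group with every other panel.

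The filament genes had the lowest fold changes between EEP and AS. All 16 were fitted lower in EEP, 13 of them at an unadjusted p under 0.05, and their median was -1.28 on the log2 scale.

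Tpm2 encodes beta-tropomyosin, which lies along the actin filament (chromosome 5, 57770919 to 57780278 on mRatBN7.2). It was at 266, 318 and 179 CPM in EEP, 363, 282 and 549 CPM in CP, 1757, 775 and 886 CPM in AS and 589, 704 and 512 CPM in normal tissue. The 3 EEP libraries lay below every AS and every normal library, and they overlapped with CP. Of the 37 members it had the smallest p between EEP and AS (log2 fold change -2.16, SE 0.422, adjusted p = 0.213), and the fold change was -1.65 without AS 1. Myl6, the essential light chain of smooth muscle and nonmuscle myosin (chromosome 7, 910764 to 914062), had 829, 551 and 377 CPM in EEP, 868, 682 and 863 CPM in CP, 2975, 1507 and 1812 CPM in AS and 1005, 1358 and 758 CPM in normal tissue. Every AS library was above every library of EEP, CP and normal tissue. The EEP to AS difference was -1.84 on the log2 scale (SE 0.419, adjusted p = 0.278) and -1.45 without AS 1. Myl9, the regulatory light chain that myosin light chain kinase phosphorylates (chromosome 3, 145281943 to 145288333), stood at 241, 105 and 78.04 CPM in EEP and 164, 181 and 140.2 CPM in CP, against 788, 365 and 312 CPM in AS and 331, 416 and 313 CPM in normal tissue. No patch library, of EEP or of CP, reached the level of any AS or normal library. Between EEP and AS it differed by -1.79 on the log2 scale (SE 0.455, adjusted p = 0.335), and it was -2.42 without EEP 1 and -1.20 without AS 1.

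Tagln encodes transgelin, an actin-binding protein used as a marker of smooth muscle (chromosome 8, 46224939 to 46230413). Its levels were 691, 493 and 166 CPM in EEP, 779, 558 and 578 CPM in CP, 2218, 1016 and 1024 CPM in AS and 862, 828 and 879 CPM in normal tissue. EEP and CP lay below AS and normal tissue in every library, and the normal libraries were close to each other. The log2 fold change between EEP and AS was -1.66 (SE 0.479, adjusted p = 0.348), and -1.12 without AS 1. Tpm1, alpha-tropomyosin (chromosome 8, 67635479 to 67662330), was at 518, 489 and 257 CPM in EEP, 341, 380.4 and 671 CPM in CP, 1084, 972 and 960.1 CPM in AS and 747, 802 and 579 CPM in normal tissue. The AS libraries lay within a narrow band above all others, and its fold change between EEP and AS was -1.25 (adjusted p = 0.351). Myh11 (chromosome 10, 743364 to 838459), the motor protein of the thick filament, had 368, 807 and 496 CPM in EEP, 802, 616 and 721 CPM in CP, 952, 1066 and 1138 CPM in AS and 815, 905 and 883 CPM in normal tissue. Its EEP libraries were again below every AS and normal library, but here EEP 1 was the lowest, whereas EEP 3 was the lowest for Tagln, Myl6, Myl9 and Tpm2. The log2 fold change of Myh11 between EEP and AS was -0.92 (SE 0.359, adjusted p = 0.408).

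**Figure D3:**
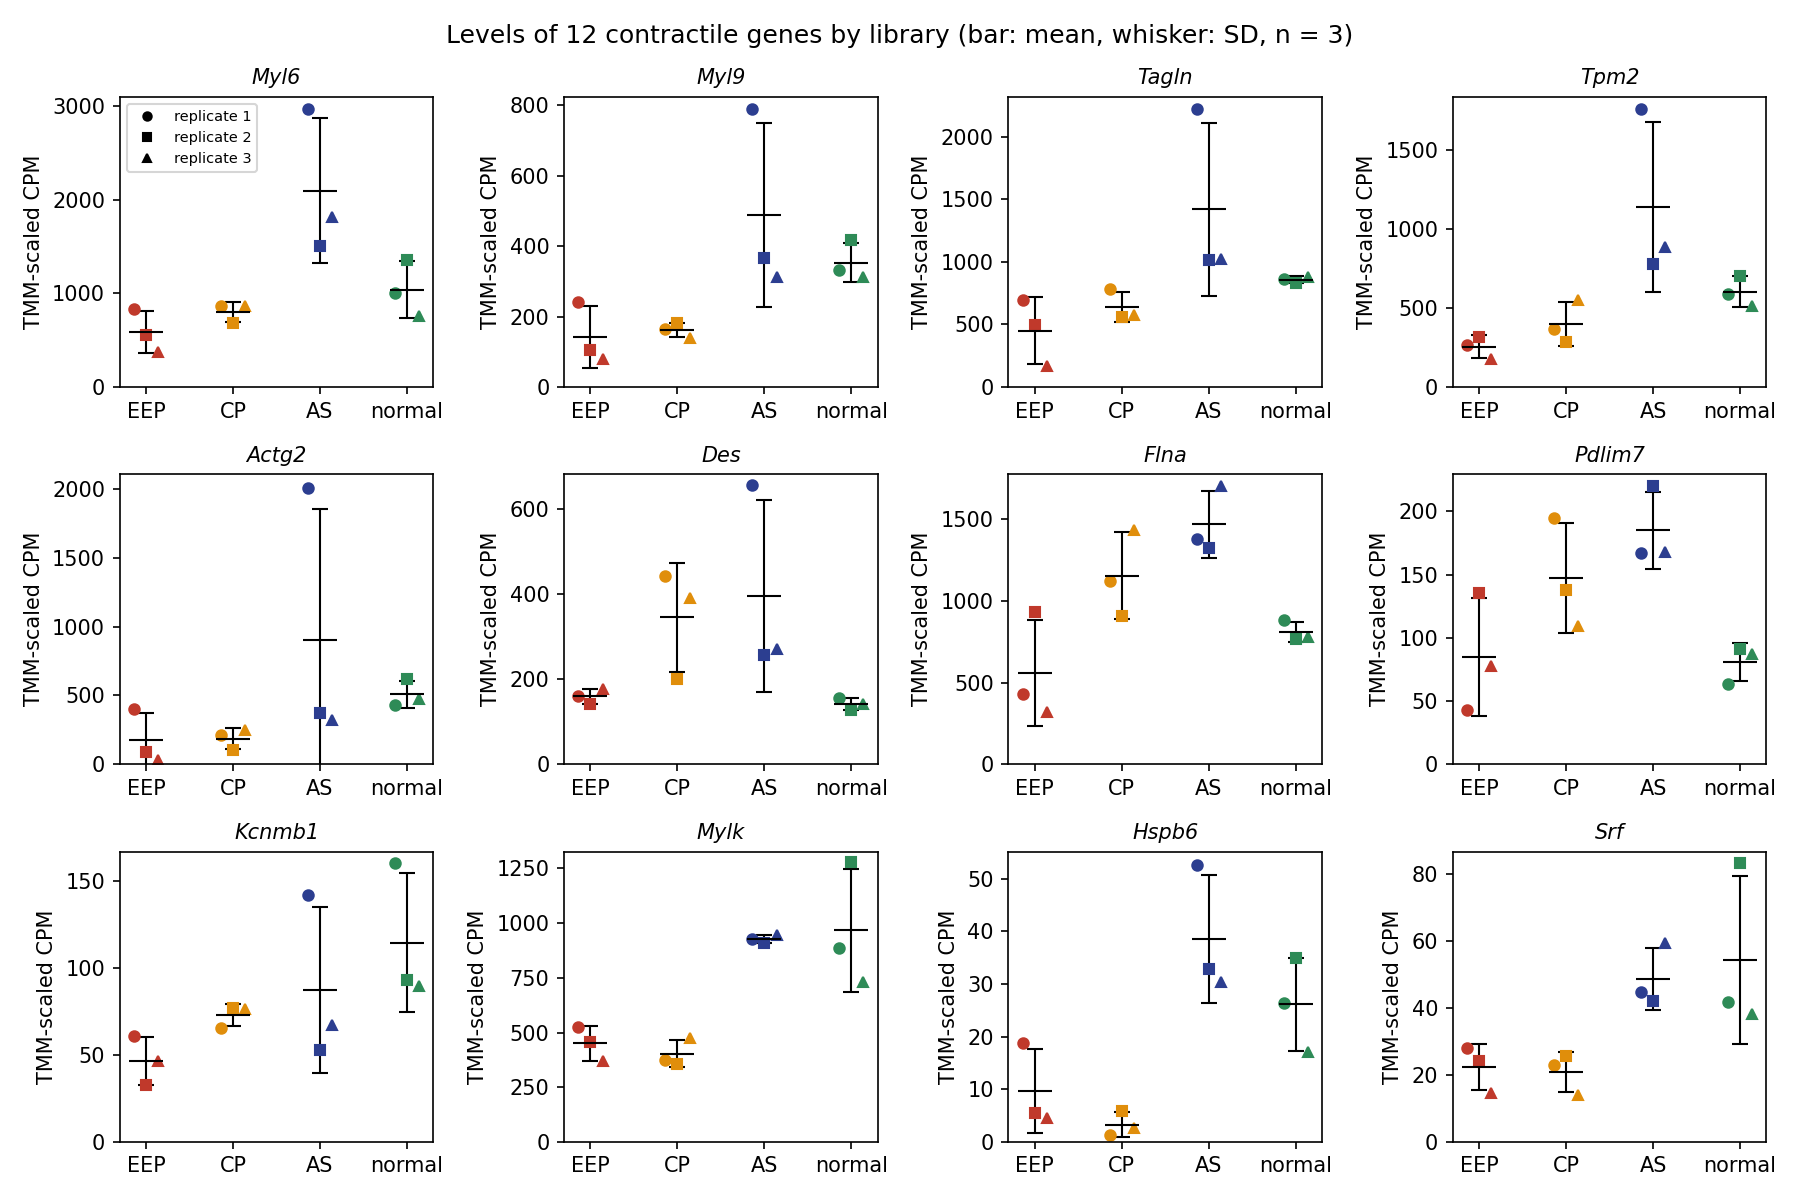
TMM-scaled CPM (y axis, linear, from 0) of 12 members in each library, grouped on the x axis as EEP, CP, AS and normal; symbols give the replicate number, bars the mean and whiskers 1 SD over 3 libraries, clipped at 0. For Myl6, EEP lies at 377 to 829 CPM and AS at 1507 to 2975 CPM; for Mylk both patch groups lie at 358 to 527 CPM, below the AS and normal libraries at 732 to 1281 CPM.

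Acta2, the smooth muscle alpha-actin whose promoter is shown above with its mismatched boxes (chromosome 1, 231746527 to 231759307), averaged 443 ± 306 CPM in EEP, 389 ± 133 CPM in CP, 945 ± 315 CPM in AS and 718 ± 35.9 CPM in normal tissue (SD, n = 3). The log2 fold change of Acta2 between EEP and AS was -1.09, with -1.79 without EEP 1 and -0.67 without EEP 3. Actg2, the gamma-actin of visceral smooth muscle, averaged 176 ± 201 CPM in EEP, 187 ± 75.4 CPM in CP, 900.3 ± 956 CPM in AS and 508 ± 99.1 CPM in normal tissue. Library AS 1 held 2003 CPM of it, while the other AS libraries held 374 and 324 CPM. The log2 value between EEP and AS was -2.35 with all libraries (SE 0.794, adjusted p = 0.376), -0.92 without AS 1 and -3.88 without EEP 1. Acta1, the alpha-actin named for skeletal muscle, whose promoter has an exact box, averaged 117 ± 75.1 CPM in EEP, 261 ± 232 CPM in CP, 513 ± 256 CPM in AS and 244 ± 83.7 CPM in normal tissue. Its log2 fold change between EEP and AS was -2.13 (adjusted p = 0.351), and -1.59 without AS 1. Other genes of striated muscle were low in the same libraries. Of 12 skeletal muscle markers, 11 were in the table and 3 passed the filter, their summed level was 11.2 to 61.4 CPM in EEP, 41.6 to 52.3 CPM in CP, 18.3 to 48.02 CPM in AS and 30.7 to 56.96 CPM in normal tissue, and Myh2 had 0 counts in every library. Actin coding sequences are nearly identical between these genes, and how reads that match several of them were counted is not given in the sources used here.

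The intermediate filaments followed another order. Des, desmin, the intermediate filament protein that links dense bodies (chromosome 9, 76850979 to 76858695), was at 161, 142 and 176 CPM in EEP, 443, 201 and 391 CPM in CP, 655, 257 and 272 CPM in AS and 155, 128 and 141 CPM in normal tissue. Every CP and every AS library lay above every EEP and normal library, and EEP overlapped with normal tissue. Desmin had the smallest p of the members between AS and normal tissue (log2 fold change 1.48, SE 0.415, adjusted p = 0.622), and that fold change was 0.88 without AS 1. Its log2 fold change was -1.31 between EEP and AS (adjusted p = 0.358), -0.68 without AS 1, and -1.11 between EEP and CP (adjusted p = 0.9997). Synm encodes synemin, which copolymerises with desmin. It stood at 13.8, 22.1 and 22.3 CPM in EEP, 56.3, 25.9 and 59.9 CPM in CP, 48.2, 49.5 and 31.8 CPM in AS and 37.96, 44.05 and 37.03 CPM in normal tissue, so that EEP lay below all other libraries. Between EEP and CP it had the smallest p of the members (log2 fold change -1.29, SE 0.381, adjusted p = 0.9997). Of the 37 members, 15 overlap a gene annotated on the opposite strand, and in 4 of them that gene covers the 3′ end: a lncRNA in Des, Tpm1 and Cacna1c, and Lin37 in Hspb6. The use of strand in counting is not given in the sources used here, so reads in the shared bases cannot be told apart. The genes over the 3′ end share 8 bases with Hspb6, 157 with Tpm1, 367 with Des and 940 with Cacna1c.

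The remaining filament genes cap, stabilise or modulate the thin filament. Cnn1, calponin, averaged 258 ± 128 CPM in EEP, 341 ± 126 CPM in CP, 690.4 ± 159.5 CPM in AS and 613 ± 70.1 CPM in normal tissue, with a log2 fold change of -1.42 between EEP and AS (adjusted p = 0.348). Cald1, caldesmon, which inhibits the actomyosin ATPase, averaged 261 ± 73.4 CPM in EEP and 461 ± 113 CPM in AS (log2 fold change -0.82). Cnn2, the calponin found also outside muscle, averaged 67.8 ± 14.6 CPM in EEP, 85.9 ± 15.98 CPM in AS and 49.5 ± 8.39 CPM in normal tissue (log2 fold change between EEP and AS -0.34). Each EEP and each AS library of Cnn2, whose promoter holds an exact box, lay above each normal library, though EEP 3 and normal 1 were almost equal (56.65 and 56.63 CPM). Smtn, smoothelin, and Lmod1, leiomodin, which nucleates actin filaments, were among the members with the smallest differences between EEP and AS. Smtn averaged 17.4 ± 1.27 CPM in EEP and 23.2 ± 4.29 CPM in AS, and Lmod1 66.5 ± 23.7 CPM in EEP and 75.4 ± 26.6 CPM in AS, with log2 fold changes of -0.41 and -0.18. Without AS 3 that of Smtn was -0.20 and that of Cnn2 -0.16, and without EEP 2 that of Cnn2 was -0.53.

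Of the 11 adhesion and dense body genes, 10 were fitted lower in EEP than in AS, 4 of them at an unadjusted p under 0.05, and the median was -0.75 on the log2 scale. Flna, filamin A, which crosslinks actin and ties it to membrane proteins (chromosome X, 152007758 to 152034266), had 433, 929 and 322 CPM in EEP, 1123, 906 and 1436 CPM in CP, 1379, 1323 and 1703 CPM in AS and 882, 767 and 781 CPM in normal tissue. EEP was below every AS library and overlapped with CP and normal tissue. Its log2 fold change was -1.39 between EEP and AS (SE 0.412, adjusted p = 0.348) and -1.04 between EEP and CP (adjusted p = 0.9997), where it was -1.61 without EEP 2. Actn1, an alpha-actinin, which crosslinks actin filaments, had 159.9, 162 and 107 CPM in EEP, 159, 115 and 185 CPM in CP, 266, 292 and 284 CPM in AS and 279.6, 172 and 168 CPM in normal tissue. EEP lay below AS and normal tissue in every library (log2 fold change to AS -0.97, adjusted p = 0.39). Csrp1, a LIM protein of the actin cytoskeleton, was at 255, 161 and 94.5 CPM in EEP, 127, 151 and 216 CPM in CP, 351, 227 and 301 CPM in AS and 202, 195 and 184 CPM in normal tissue. EEP 1 overlapped with AS, and the log2 fold change was -0.78 (adjusted p = 0.514), with -1.20 without EEP 1 and -0.44 without EEP 3.

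Pdlim7, a PDZ and LIM domain protein that binds tropomyosin and actin structures (chromosome 17, 9124565 to 9139814), was at 42.7, 135 and 77.5 CPM in EEP, 195, 138 and 109 CPM in CP, 167, 220.4 and 168 CPM in AS and 63.4, 91.5 and 87.2 CPM in normal tissue. As with desmin, CP and AS lay above normal tissue in every library and EEP overlapped with normal tissue. The log2 fold change was 1.20 between AS and normal tissue (SE 0.405, adjusted p = 0.752) and -1.12 between EEP and AS (adjusted p = 0.391). Its relative Pdlim3, which binds alpha-actinin, had another pattern, with means of 55.6 ± 23.2 CPM in EEP, 67.1 ± 21.2 CPM in CP, 89.1 ± 24.7 CPM in AS and 118 ± 15.3 CPM in normal tissue. Every EEP and CP library of Pdlim3 lay below every normal library.

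The plaque proteins that couple actin to integrins differed in their pattern. Vcl, vinculin, averaged 46.04 ± 14.3 CPM in EEP, 53.2 ± 15.2 CPM in CP, 87.02 ± 24.9 CPM in AS and 74.8 ± 6.03 CPM in normal tissue (log2 fold change between EEP and AS -0.92, and -0.61 without AS 1). Pgm5, aciculin, which sits in the same plaques, averaged 51.2 ± 16.8 CPM in EEP, 53.3 ± 12.8 CPM in CP, 79.96 ± 8.22 CPM in AS and 88.1 ± 15.99 CPM in normal tissue. Vinculin and aciculin were below AS and below normal tissue in every EEP library. Tln1, talin, which binds vinculin and integrin tails, averaged 168 ± 32.8 CPM in EEP, 177 ± 25.5 CPM in CP, 162 ± 46.3 CPM in AS and 157 ± 7.03 CPM in normal tissue, and was the single gene of this role fitted higher in EEP than in AS, at a log2 fold change of 0.06 (SE 0.325). Dmd, dystrophin, which has an exact box in the promoter shown, averaged 146 ± 81.8 CPM in EEP, 243 ± 68.6 CPM in CP, 181 ± 77.9 CPM in AS and 121 ± 17.3 CPM in normal tissue, and each CP library lay above each normal library. Synpo2, an actin-bundling protein of the dense body, averaged 13.6 ± 8.34 CPM in EEP and 22.9 ± 12.1 CPM in AS, and its libraries overlapped. Itga8, the integrin alpha-8 subunit, was close to the limit of counting, with 10, 20 and 14 counts in EEP, 37, 1 and 1 in CP, 0, 22 and 42 in AS, and 12, 14 and 23 in normal tissue, and no difference was detectable at this depth.

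The 4 channel and calcium genes split evenly between EEP and AS, with Kcnmb1 and Jph2 fitted lower and Kcnma1 and Cacna1c fitted higher. Kcnmb1, the beta-1 subunit that raises the calcium sensitivity of the large-conductance potassium channel, was at 60.5, 32.6 and 46.2 CPM in EEP, 65.4, 76.9 and 76.1 CPM in CP, 142, 52.9 and 67.00 CPM in AS and 160.3, 93.2 and 89.4 CPM in normal tissue. EEP lay below every CP and normal library and overlapped with AS. Its log2 fold change was -1.30 between EEP and normal tissue (SE 0.409, adjusted p = 0.497). Between EEP and AS it was -0.91, and -0.31 without AS 1. Kcnma1, the pore-forming subunit of the same channel, had nearly equal means of 10.2 ± 1.74 CPM in EEP, 10.1 ± 5.84 CPM in CP, 8.82 ± 5.94 CPM in AS and 10.1 ± 1.87 CPM in normal tissue. Between EEP and AS its log2 fold change was 0.20 with an SE of 0.617. The gene of Kcnmb1 lies opposite Kcnip1 on the other strand for 31324 bases, not over its 3′ end.

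Cacna1c, the pore of the L-type calcium channel, was at 5.73, 48.03 and 29.5 CPM in EEP, 33.4, 32.1 and 41.7 CPM in CP, 7.37, 30.9 and 25.7 CPM in AS and 11.5, 14.7 and 15.4 CPM in normal tissue. The CP libraries lay above every AS and normal library, and the EEP libraries spread over the whole range. The log2 fold change between EEP and AS was 0.37 (SE 0.594), and -0.31 without EEP 2. Jph2, junctophilin, which holds the sarcoplasmic reticulum close to the cell membrane, was at 13.01, 9.01 and 10.7 CPM in EEP, 9.55, 9.401 and 19.8 CPM in CP, 18.6, 30.5 and 25.3 CPM in AS and 24.3, 30.2 and 15.2 CPM in normal tissue. Its EEP libraries were below every AS and normal library (log2 fold change to AS -1.18, SE 0.43, adjusted p = 0.391).

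All 6 regulators were fitted lower in EEP than in AS and than in normal tissue, with median log2 fold changes of -1.10 and -1.19. Mylk, the kinase that phosphorylates the regulatory light chain (chromosome 11, 65783008 to 66030239), was at 527, 457 and 369 CPM in EEP and 376, 358 and 473 CPM in CP, against 929, 909 and 946 CPM in AS and 889, 1281 and 732 CPM in normal tissue. Both patch groups lay below both groups without a patch in every library. Its log2 fold change was -1.04 between EEP and AS (SE 0.344, adjusted p = 0.376), -1.10 between EEP and normal tissue (adjusted p = 0.497) and -1.21 between CP and AS (adjusted p = 0.286). Srf, the transcription factor with 2 exact boxes in its own promoter (chromosome 9, 14426453 to 14435734), was at 28.2, 24.2 and 14.7 CPM in EEP and 22.9, 25.7 and 14.1 CPM in CP, against 44.7, 42.2 and 59.3 CPM in AS and 41.7, 83.3 and 38.3 CPM in normal tissue. It divided the libraries in the same way as Mylk, with log2 fold changes of -1.11 between EEP and AS (SE 0.399, adjusted p = 0.391), -1.27 between EEP and normal tissue (adjusted p = 0.497) and -1.38 between CP and normal tissue (adjusted p = 0.216). Without normal 2 the values against normal tissue were -0.83 for EEP and -0.94 for CP. The 4 members with an exact box ranged widely between EEP and AS, with log2 fold changes of -2.13 for Acta1, -1.11 for Srf, -0.34 for Cnn2 and -0.31 for Dmd.

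Myocd, myocardin, the coactivator of serum response factor, averaged 15.5 ± 5.91 CPM in EEP, 33.03 ± 6.79 CPM in CP, 32.7 ± 25.2 CPM in AS and 31.9 ± 8.49 CPM in normal tissue. Its EEP libraries lay below every CP and normal library, and AS 1 was the lowest of all 12 libraries. The log2 fold change between EEP and AS was -1.08 (SE 0.551, adjusted p = 0.536), with -0.35 without AS 2 and -1.51 without AS 1. Ppp1r12b, a targeting subunit of myosin phosphatase, was at 44.9, 86.5 and 51.2 CPM in EEP, 85.5, 107 and 126 CPM in CP, 86.1, 176 and 179 CPM in AS and 134, 184 and 126 CPM in normal tissue. EEP was below normal tissue in every library, and of the members it had the smallest p between EEP and normal tissue (log2 fold change -1.28, SE 0.382, adjusted p = 0.467). Ppp1r14a, the phosphatase inhibitor CPI-17, averaged 7.79 ± 5.55 CPM in EEP, 16.3 ± 7.65 CPM in CP, 12.9 ± 4.51 CPM in AS and 11.97 ± 3.13 CPM in normal tissue, with overlapping libraries.

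Hspb6, a small heat shock protein that is phosphorylated when smooth muscle relaxes (chromosome 1, 85806898 to 85809072), was the member with the smallest p between CP and AS. It was at 18.8, 5.404 and 4.62 CPM in EEP, 1.26, 5.88 and 2.66 CPM in CP, 52.6, 32.8 and 30.4 CPM in AS and 26.5, 34.8 and 17.1 CPM in normal tissue, and the CP levels rest on 5, 35 and 14 counts. Every CP library lay below every AS and normal library. EEP 2 and EEP 3 were within the range of CP, and EEP 1 was within that of normal tissue. The log2 fold change was -3.53 between CP and AS (SE 0.634, adjusted p = 0.133), -2.96 between CP and normal tissue (adjusted p = 0.126) and -1.97 between EEP and AS (adjusted p = 0.348). Between EEP and CP it was 1.56 (adjusted p = 0.9997), and 0.59 without EEP 1. Lin37 lies on the opposite strand and overlaps the last 8 bases of Hspb6.

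The comparison of CP with AS asks how a patch without cells goes with the members in scraped horns. Between CP and AS, where 0.00719% of all genes were called, 29 members were fitted lower and 8 higher, against 50.7% and 49.2% of all genes. The median log2 fold change was -0.59, against -0.02 over all genes. At an unadjusted p under 0.05, 14 members were lower and none was higher, against 6.71% and 5.28% of all genes, and DESeq2 called Hspb6, Myl6, Myl9, Mylk and Tpm2, and 1.08% of the 12240 genes with an adjusted p. In 17 members every CP library lay below every AS library, which 9.22% of all genes did, and Cacna1c was the single member with every CP library above, against 8.73%. The members with the next smallest p after Hspb6 were Tpm2, Myl9 and Mylk, with log2 fold changes of -1.52, -1.60 and -1.21 (adjusted p = 0.286 for each), and that of Myl9 was -1.03 without AS 1. The count of 14 was 9 without CP 1, 6 without CP 2 and 18 without EEP 1 and AS 1 together. Over all genes, 933 were lower at that p with all libraries, 563 to 965 with 1 library left out, and 563 to 1262 over all alternatives.

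Between EEP and CP, where 0% of all genes were called, the members differed less. The median log2 fold change was -0.27, against 0.04 over all genes, with 29 members fitted lower and 8 higher, against 47.3% and 52.7% of all genes. At an unadjusted p under 0.05, Des, Synm and Flna were lower in EEP and Hspb6 was higher, against 1.12% and 1.87% of all genes, and DESeq2 called none of the members and 0.00722% of its genes. In Des, Synm, Kcnmb1 and Myocd every EEP library lay below every CP library, as in 3.07% of all genes, and in Smtn every EEP library lay above, as in 3.87%. The count of 3 lower members was 6 without EEP 2 or with the replicate number as block, 8 with the mitochondrial share as covariate and 11 without EEP 1 and AS 1 together, and the median was -0.09 without CP 3. Over all genes, 156 of 13909 were lower at that p with all libraries, and 562 of 14175 without EEP 1 and AS 1 together.

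Against normal tissue the CP libraries divided the members, with 23 fitted lower and 14 higher, against 51.6% and 48.4% of all genes, and a median log2 fold change of -0.42, against -0.04. At an unadjusted p under 0.05, 4 members were higher in CP (Des, Pdlim7, Dmd and Cacna1c) and 7 were lower (Myl9, Smtn, Pgm5, Pdlim3, Mylk, Hspb6 and Srf), against 6.77% and 5.88% of all genes. Of all genes 0% were called, and DESeq2 called 2 members, Hspb6 and Mylk, and 2.03% of the 13584 genes with an adjusted p. The log2 fold changes with the smallest p were -2.96 for Hspb6, -1.26 for Mylk, -1.38 for Srf and 1.28 for Des. Every CP library lay below every normal library in 16 members and above in 5, against 14.8% and 13.1% of all genes. The count of 4 higher members was 1 without normal 1, without normal 2 or without normal 3 and 2 without CP 3, and the count of 7 lower members was 4 without normal 1 and 3 without normal 2. With the mitochondrial share as covariate the counts were 1 higher and 4 lower, and the lower members numbered 11 with the 2 groups alone and 12 without EEP 1 and AS 1 together. The share did not overlap between CP and normal tissue, so the fit with this covariate cannot fully separate share from group. Over all genes, 942 were higher and 818 lower at that p with the settings reported. With the covariate these counts were 430 and 367, and without EEP 1 and AS 1 together 1577 and 1303.

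The scraping injury itself was read from AS and normal tissue. Here 0.00719% of all genes were called, and 29 members were fitted higher in AS and 8 lower, against 51.6% and 48.3% of all genes. The median log2 fold change was 0.40, against 0.03 over all genes. Des, Pdlim7, Myl6 and Tpm2 were higher at an unadjusted p under 0.05, with log2 fold changes of 1.48, 1.20, 1.01 and 0.92 and adjusted p of 0.622 to 0.883, against 2.67% of all genes, and DESeq2 called none of the members and 0.291% of its genes. No member was lower at that p, against 2.88% of all genes. In 10 members every AS library lay above every normal library, which 6.51% of all genes did, and in none did every AS library lie below, against 8.26%. Without AS 1 the count of 4 higher members was 2, and Myl6 and Tpm2 had log2 fold changes of 0.65 and 0.44. Without normal 1, or without normal 3, it was also 2, whereas it was 7 with the 2 groups alone or without EEP 1 and AS 1 together and 11 with the mitochondrial share as covariate. That share did not overlap between AS and normal tissue, so here too the covariate cannot be fully separated from group. Over all genes, 371 were higher at that p with all libraries and 205 without normal 1. EEP and AS, CP and AS, and AS and normal tissue share the AS libraries, so these comparisons are not independent of each other.

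Ratios of counts within a library do not depend on scaling, and 3 pairs are given by library that were chosen after their values were seen. Further pairs were computed. EEP and normal tissue overlapped in Acta1 over Acta2 (0.165 to 0.454 and 0.261 to 0.448) and in Myl9 over Myh11 (0.130 to 0.655 and 0.354 to 0.460). They did not overlap in Tpm2 over Tpm1 (0.514 to 0.694 and 0.788 to 0.884). For each count of Acta2 there were 0.518, 0.25 and 0.168 counts of Actg2 in EEP, 0.583, 0.378 and 0.463 in CP, 1.54, 0.541 and 0.382 in AS and 0.606, 0.819 and 0.69 in normal tissue. All EEP and CP ratios were below all normal ratios, and the AS ratios ran from below them to above them. For each count of Cnn1 there were 0.43, 0.507 and 1.46 counts of Des in EEP, 1.51, 0.814 and 0.808 in CP, 0.761, 0.472 and 0.409 in AS and 0.265, 0.186 and 0.252 in normal tissue. The normal libraries had the lowest ratios of desmin to calponin, with no overlap with any injured library. For each count of Tagln there were 0.0272, 0.011 and 0.0279 counts of Hspb6 in EEP, 0.00161, 0.0105 and 0.00461 in CP, 0.0237, 0.0323 and 0.0297 in AS and 0.0307, 0.0421 and 0.0194 in normal tissue, and the CP ratios lay below all others.

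**Figure D4:**
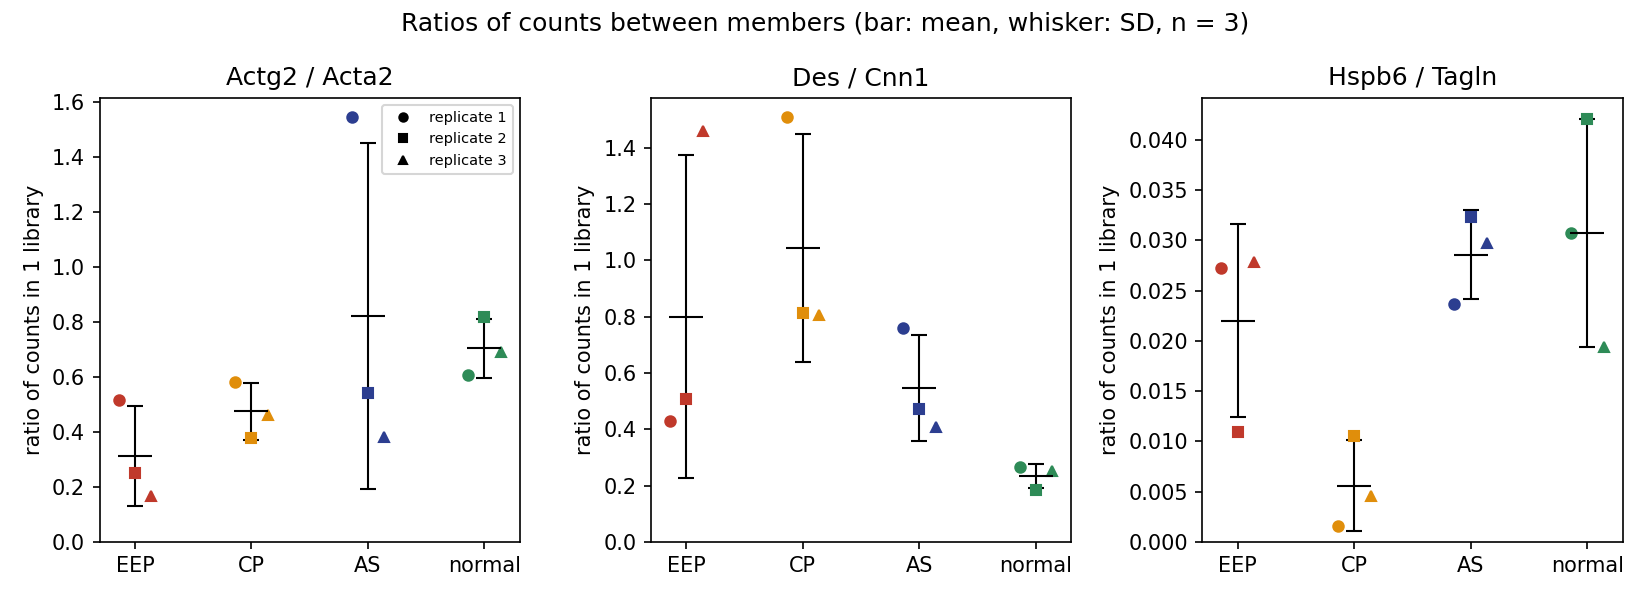
Ratio of the counts of 2 members within each library (y axis, linear, from 0) for Actg2 over Acta2, Des over Cnn1 and Hspb6 over Tagln, by group on the x axis; symbols give the replicate number, bars the mean and whiskers 1 SD over 3 libraries. The CP libraries lie lowest for Hspb6 over Tagln, and the normal libraries lie lowest for Des over Cnn1.

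The members differ in the length of their genes, from 2.17 kb for Hspb6 to 2232 kb for Dmd between start and end, and the fold changes were set against this length after the values were seen. Between EEP and AS the 13 members under 20 kb had a median log2 fold change of -1.42 and the 9 members over 100 kb a median of -0.74. Spearman's rho between fold change and length was 0.579 over the 37 members and 0.158 over all 13909 genes, as a description across genes that share the same libraries. Without AS 1 the medians were -1.14 and -0.95 and rho was 0.318 over the members and 0.0395 over all genes. Without EEP 1 the medians were -1.79 and -0.50 and rho was 0.655 and 0.155. With both left out the medians were -1.60 and -0.82 and rho was 0.555 and 0.0923. With the mitochondrial share as covariate the medians were -2.09 and -0.60, and rho was 0.706 and 0.164. The mean relative log2 level of the long members minus that of the short members was -0.54, 0.56 and 1.28 in EEP, 0.64, 0.23 and -0.13 in CP, -1.78, 0.11 and -0.06 in AS, and -0.14, -0.15 and -0.02 in normal tissue. In AS 1 the short members were thus high and the long ones low, and over all genes tested this library also had the lowest value, -0.64, against -0.17 to 0.30 in the other libraries. Whether gene length has a part in the fold changes of the members was not tested.

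**Figure D5:**
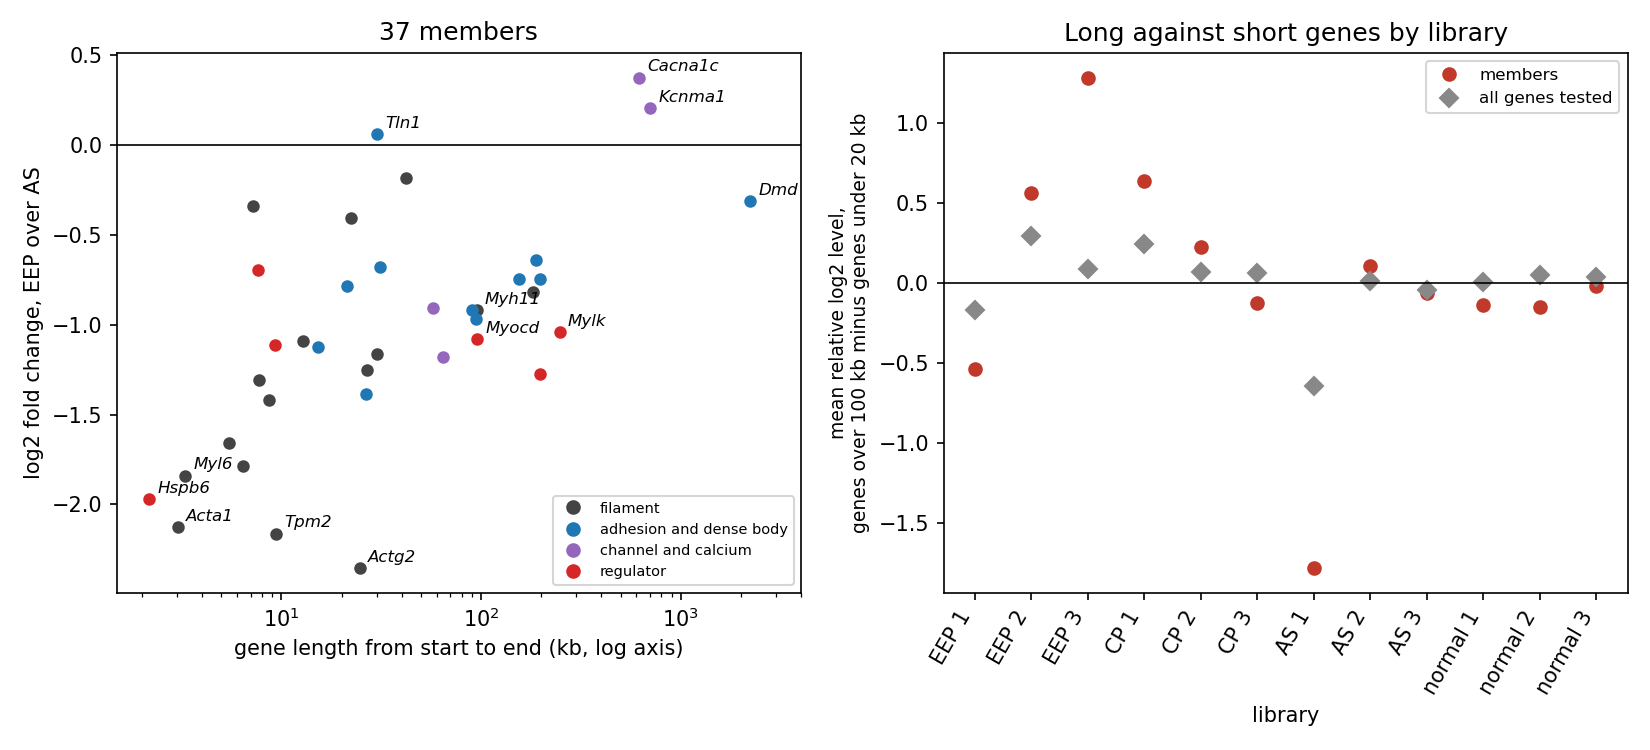
Left, log2 fold change of each member between EEP and AS (y axis) against gene length from start to end (x axis, kb, log scale), coloured by role; right, mean relative log2 level of genes over 100 kb minus that of genes under 20 kb in each library, for the members (red) and for all genes tested (grey). Actg2 lies lowest on the left, at -2.35, followed by the short members Tpm2, Acta1, Hspb6 and Myl6, and AS 1 has the lowest value on the right, -1.78 for the members.

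Genes that work with the members were counted from 4 further lists, and none of their genes was called in any comparison. Of 19 caveola and costamere genes tested, 16 were fitted lower in EEP than in AS, 4 of them at an unadjusted p under 0.05, and the median was -0.52 on the log2 scale. Those with the smallest p were Itga5, the integrin alpha-5 subunit, at 2.31, 4.65 and 1.45 CPM in EEP against 17.9, 10.4 and 15.2 CPM in AS, and Dtna, alpha-dystrobrevin, at 11.8, 7.96 and 4.62 CPM in EEP against 23.8, 23.2 and 25.1 CPM in AS. Of 29 further genes of the smooth muscle actin cytoskeleton, 21 were fitted lower with a median of -0.42, and 5 had an unadjusted p under 0.05, all lower. Tgfb1i1, the focal adhesion protein Hic-5, was at 45.4, 18.5 and 19.7 CPM in EEP against 91.8, 62.9 and 80.8 CPM in AS. The cytoplasmic actin Actb, of the same list, was at 2543, 3624 and 2276 CPM in EEP and 4371, 3453 and 3879 CPM in AS. The list of contraction signalling did not share this direction, with 8 of 17 genes fitted lower, a median of 0.22, and 2 higher and 2 lower at an unadjusted p under 0.05. Of 12 cofactors and competitors of serum response factor, 5 were fitted lower, the median was 0.14, and 2 had an unadjusted p under 0.05, both lower.

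Values of markers of other cell types are set beside these. All 5 tested of 8 stratified epithelium markers were fitted higher in EEP than in AS, with summed levels of 62.4 to 114 CPM in EEP, 8.04 to 39.96 CPM in CP, 0.767 to 17.2 CPM in AS and 1.502 to 4.701 CPM in normal tissue. Of 10 stroma and fibroblast markers 7 were fitted lower in EEP than in AS, none at an unadjusted p under 0.05, and all 10 were fitted lower in EEP and in CP than in normal tissue, 3 and 5 of them at that p (median log2 fold changes -0.74 and -1.18). Their sums were 3365 to 9275 CPM in EEP, 4483 to 7293 CPM in CP, 7067 to 9692 CPM in AS and 8434 to 11184 CPM in normal tissue. Of 7 tested of 8 pericyte markers 6 were fitted lower, with sums of 53.6 to 108 CPM in EEP, 89.1 to 135 CPM in CP, 99.6 to 136 CPM in AS and 81.7 to 88.7 CPM in normal tissue. Within EEP, EEP 1 had the highest and EEP 3 the lowest sum of both the stromal and the contractile genes. The stromal sums were 9275, 5032 and 3365 CPM, whereas the contractile sums of EEP 1 and EEP 2 were close, at 7129 and 6919 CPM. By mean relative log2 level of the members, EEP 2 was above EEP 1 (-0.32 against -0.43). All 6 erythrocyte markers were fitted lower in EEP than in AS, 1 of them at that p, and all 6 higher in EEP than in normal tissue, 1 of them at that p. Their sums were 301, 456 and 819 CPM in EEP against 2810.5, 200.5 and 407 CPM in AS. Only AS 1 was thus above all EEP libraries, and AS 2 was below all of them. The part of these cell types in the levels of the contractile genes was not tested. With the mitochondrial share as covariate, 22 members were lower in EEP than in AS at an unadjusted p under 0.05, and 1378 of all 13909 genes. The median log2 fold change of the members was then -1.08, while that of Actg2 was -4.23 and that of Acta2 -2.02, against -1.09 for Acta2 without the covariate.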

How the data were processed

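RNA of rat uterine tissue was sequenced with the QuantSeq 3′ kit from 1000 ng of total RNA, single-end at 75 bp, in 12 libraries of 4 groups. The authors deposited raw counts for each gene, whole numbers with no normalization, from reads aligned by Bowtie2 and counted with bedtools per the submitters' processing notes, which give no versions. The table places genes on mRatBN7.2 according to the information sheet among the deposited files, although mm10 is the build in the processing notes, and its symbols are rat symbols. The use of strand and the handling of multiply mapped reads are not given in the sources used here.

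Counts were scaled by TMM, filtered with filterByExpr and fitted over all 12 libraries with edgeR 4.0.16 (glmQLFit, glmQLFTest) under R 4.3.3. Benjamini-Hochberg adjustment ran over 13909 genes and genes were called at an adjusted p under 0.05. The biological coefficient of variation was 59.2%. A count of 3 in a library stands for 0.177 to 0.867 CPM. The code was tested on simulated data. The labels do not say that the libraries of a group come from separate animals, so the p-values cover only the spread among these libraries, which may be technical. Promoters are from RefSeq on GRCr8, matched by symbol.

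The 37 members, the further lists and the tests were chosen with earlier results of these data known. Values in every library were to be given for the members with the highest mean level per role (4 filament genes, 3 in each other role) and for the 4 with the smallest p in each comparison. Alternatives were RLE scaling, DESeq2 1.42.0, no filter, a filter of 5 CPM in 3 libraries, fits of 2 groups alone, the replicate number as block, removal of mitochondrial genes, the mitochondrial share as covariate, and leaving out each library. Leaving out EEP 1 and AS 1 together was added after seeing the data.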

Additional observations from a re-analysis of the deposited data

How the results depend on the processing

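No member was called between any groups with the settings reported, and none was called between EEP and CP or between AS and normal tissue under any alternative run. With DESeq2, 10 members were called between EEP and AS, 5 between CP and AS, 1 between EEP and normal tissue and 2 between CP and normal tissue. With no filter on low counts, 6 were called between EEP and AS (Acta1, Actg2, Hspb6, Myl6, Myl9, Tpm2), 3 between CP and AS (Actg2, Hspb6, Myl9) and 2 between CP and normal tissue (Actg2, Hspb6). Of the 22391 genes in that fit, 143, 230 and 445 were called in these 3 comparisons. With the mitochondrial share as covariate, 1 was called between CP and AS (Hspb6), and with 2 groups alone 6 between CP and normal tissue. Over all genes, 2 of 13909 and 585 of 12643 were called there. Without EEP 1 and AS 1 together, 5 were called between EEP and AS, 1 between CP and AS, 14 between EEP and normal tissue and 8 between CP and normal tissue. Of the 14175 genes in that fit, 87, 37, 854 and 738 were called in these comparisons. Leaving out 1 library at a time gave 0 to 1 called members between EEP and AS and 0 to 1 between EEP and normal tissue, in both cases Myl9 without EEP 1, and 0 in the other comparisons. Called genes of the whole table were 2 between EEP and AS, 1 between CP and AS, 1 between EEP and normal tissue, 0 between CP and normal tissue, 1 between AS and normal tissue and 0 between EEP and CP. With DESeq2 they were 140, 132, 78, 276, 34 and 1, with no filter 143, 230, 232, 445, 154 and 5, and without EEP 1 and AS 1 together 87, 37, 854, 738, 27 and 0. With 2 groups alone they were 1 between EEP and AS, 3 between EEP and normal tissue and 585 between CP and normal tissue. Without EEP 1 they were 19 between EEP and AS and 200 between EEP and normal tissue, of 14285 genes. Between EEP and normal tissue 0 were called with mitochondrial genes removed or with the stricter filter, 2 with the mitochondrial share as covariate and 4 without normal 2. Leaving out other single libraries gave 1 to 5 between CP and AS, 1 to 6 between AS and normal tissue and 0 to 6 between CP and normal tissue. The cause of these differences was not tested.

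The direction between EEP and AS turned for 6 members. With the settings reported, Itga8 was at -0.74 on the log2 scale, on 0 to 42 counts per library. The others were of small difference, from -0.31 for Dmd to 0.37 for Cacna1c. With the mitochondrial share as covariate the log2 fold changes were 0.16 for Dmd, 0.48 for Itga8 and 0.10 for Lmod1. With 1 library left out, the values ran from -0.76 to 0.057 for Dmd (above 0 without EEP 1), from -0.31 to 0.86 for Cacna1c (below 0 without EEP 2), from -1.30 to 0.29 for Itga8 (above 0 without AS 3), from -0.40 to 0.080 for Lmod1 (above 0 at 0.080 without EEP 1 and 0.052 without AS 2), from -0.21 to 0.71 for Kcnma1 (below 0 without AS 1) and from -0.027 to 0.36 for Tln1 (below 0 at -0.027 without EEP 2 and -0.020 without AS 1). Without EEP 1 and AS 1 together Kcnma1 was at -0.22. The cause was not tested.

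With the replicate number as a block, 0 members were called in each comparison, and the called genes of the whole table were 3 between EEP and AS, 4 between EEP and normal tissue and 11 between CP and normal tissue. Same-numbered libraries of 2 groups correlated at -0.103 to 0.390 in 18 pairs of groups and numbers, 5 of them over 0.1, and 8 correlated best with their own number. For EEP and CP, which may hold horns of 1 animal, each EEP library correlated best with the CP library of its number. These correlations were low, at 0.064, 0.013 and 0.113. The labels do not link numbers to animals, so whether EEP and CP are paired cannot be told, and the libraries were treated as independent. The depth of 1202525 to 5832552 nuclear counts limits what can be said of members with few counts, such as Itga8, and 3 libraries per group limit every comparison.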
